A study of Mus musculus with 9 samples.

Results

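Transcripts of 32 red-cell genes were followed in RNA from sorted mouse splenic T cells. They were the members of a named list of globins, red-cell transcription factors, the erythropoietin receptor, membrane skeleton proteins, blood group proteins, other membrane proteins, enzymes and ubiquitin ligases. All 32 symbols matched 1 identifier each among the 29229 genes of the count table, and all 32 passed the filter on low counts that left 19609 genes for testing.

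The study compared donor T cells 7 days after transplantation of hematopoietic stem cells with T cells of healthy mice, in 9 libraries of total RNA. The 3 naive libraries came from C57BL/6 mice (CD45.2, the leukocyte allele carried by the donors) without a transplant. The 3 syngeneic libraries came from B6.SJL-Ptprca Pepcb/BoyJ recipients (H-2b, CD45.1) given 9.5 Gy and 8.5 × 1000000 C57BL/6 splenic T cells. The 3 allogeneic libraries came from CByJ.SJL(B6)-Ptprca/J recipients (H-2d, CD45.1) given 8 Gy in a split dose and 1000000 C57BL/6 splenic T cells. Recipients of both kinds also had 5 × 1000000 C57BL/6 marrow cells depleted of T cells, and acidified drinking water. Mice were female and 8 to 12 weeks old, and the cells of 2 to 4 recipients were pooled for each library after a transplant, in pools independent of each other. The sources used here do not say whether naive mice were pooled. Recipient strain, radiation dose and T-cell dose all changed together with the transplant type, so that their parts in a difference cannot be told apart. Splenocytes passed a kit that enriches T cells, and live cells positive for CD3 and CD45.2 were then collected by flow sorting. Since the transplanted marrow carried CD45.2 as well, the allele does not separate infused T cells from other donor blood cells, and the gate rested on CD3 for that.

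Red cells arise from progenitors of the marrow and, in the mouse under stress such as recovery from irradiation, also of the spleen. Erythropoietin acts through its receptor, and the factors Gata1, Tal1, Klf1 and Nfe2 switch on a shared program. Late precursors fill with globin, build a membrane skeleton of spectrin and ankyrin anchored to the anion exchanger Slc4a1, and expel their nucleus, so that young red cells still hold RNA from this program.

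Libraries held 103953932 to 176678189 counts. The share in 2 genes read as a ribosomal RNA locus moved with the groups: it was 15.8 to 18.8% in naive and 19.4 to 22.4% in syngeneic libraries, 17.2% in allogeneic library 1 and 9.06 and 7.87% in allogeneic libraries 2 and 3. With the locus left out of the edgeR fit, none of the 32 genes gained or lost a call in the 3 comparisons. At this depth 3 counts equal 0.0170 to 0.0289 CPM, counts per 1000000 counts of the library, the scale of the levels below. Naive levels of the scarcest genes rested on few counts, with 17 for Trim10, 20 for Cldn13 and 25 for Rhd over the 3 naive libraries together. T-cell genes were high in every library: the summed level of 15 of them was 8221 to 8852 CPM in naive, 6405 to 7351 CPM in syngeneic and 7899 to 8776 CPM in allogeneic libraries. Allogeneic library 1 stood apart from the other allogeneic libraries across all genes, with a chi-square per degree of freedom of 362 and 335 against them, beside 44.6 between those libraries. Syngeneic library 1 stood apart from its group as well, at 136 and 114 beside 33.3.

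Promoter sequence was read for members whose transcripts moved together. RefSeq windows on GRCm38.p6, from 250 bases before to 50 after a start, were at hand for 25 of the 32 genes. Those of Car1, Slc4a1, Car2, Nfe2, Dmtn, Ank1 and Cldn13 are not analysed here. The letters AGATAA or TGATAA, the core that Gata factors bind, stood on either strand in a window of 14 of these 25 genes (56%), beside 21.0% of all 27025 genes with a window. The letters CCNCNCCC, the kind of CACC box that Klf1 binds, were in 16 of 25 (64%), beside 51.9% of all genes. TGAGTCA, a core bound by the Nfe2 factor, was in 3 of 25 (Hbb-bs, Kel and Trim10), beside 5.95% of all genes. Within the 150 bases nearest the start, AGATAA or TGATAA was found for 8 of the 25 genes (32%), beside 10.7% of all genes. A match is a run of letters and not a measured binding site. The 2 alpha-globin copies are 1 sequence upstream, identical over 247 aligned bases, and count as 2 of the 14.

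The 5 stretches printed here belong to a beta-globin, an alpha-globin, the transcription factor Klf1, the receptor and a blood group gene. They run 5′ to 3′ on the gene's strand and end at or before the first annotated exon, and capitals mark the matches named above.
Hbb-bs upstream, chr7:103828097-103828178, minus strand: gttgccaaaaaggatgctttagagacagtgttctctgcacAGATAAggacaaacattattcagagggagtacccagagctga
Hba-a2 upstream, chr11:32296242-32296488, plus strand: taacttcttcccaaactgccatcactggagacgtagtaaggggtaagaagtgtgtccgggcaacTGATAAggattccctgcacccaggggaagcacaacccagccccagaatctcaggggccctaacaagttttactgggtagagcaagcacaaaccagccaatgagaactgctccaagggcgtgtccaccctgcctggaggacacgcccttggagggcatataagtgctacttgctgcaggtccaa
Klf1 upstream, chr8:84901862-84901927, plus strand: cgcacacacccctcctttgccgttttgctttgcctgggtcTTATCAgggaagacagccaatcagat
Epor upstream, chr9:21963577-21963696, minus strand: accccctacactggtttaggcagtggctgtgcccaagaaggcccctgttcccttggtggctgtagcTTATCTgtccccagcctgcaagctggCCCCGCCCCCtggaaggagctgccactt
Kel upstream, chr6:41704340-41704445, minus strand: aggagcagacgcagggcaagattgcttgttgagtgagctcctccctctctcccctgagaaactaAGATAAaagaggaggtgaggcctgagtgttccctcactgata
Hbb-bs carried AGATAA 210 bases before its RefSeq start, Hba-a2 TGATAA 186 bases before, and Kel AGATAA 56 bases before. In Klf1 and Epor the match read on the opposite strand and began 80 and 54 bases before the start, and Epor also held overlapping CACC boxes 28 and 26 bases before it. Other counted matches did not lie wholly within the printed stretches. Hbb-bs had a CACC box 93 bases before its start and TGAGTCA after it. Kel had TGATAA 19 and TGAGTCA 232 bases before its start, and Epor had CACC boxes 124 and 122 bases before its own.

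All 32 genes were higher in syngeneic than in naive libraries, and 31 of the 32 were lower in allogeneic than in syngeneic libraries. Allogeneic libraries in turn held more of 25 of these transcripts than naive ones. Together the 32 genes took 0.00463 to 0.00498% of the counts of a naive library, 0.295 to 0.840% of a syngeneic one and 0.0102 to 0.0317% of an allogeneic one. Which cells the transcripts came from was not tested. In pooled cells, the number of cells that carried them, the kinds of these cells and the RNA in each cannot be told apart.

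The 32 genes called higher in syngeneic against naive libraries (edgeR quasi-likelihood test, adjusted p under 0.05 over all genes) stood beside 22.4% of all genes tested that were called higher and 19.5% called lower. Their median log2 fold change was 7.76, beside 0.0057 over all genes. The naive and syngeneic libraries did not overlap for any of the 32 genes, beside 25.4% of all genes with syngeneic libraries all higher. Against naive libraries, 25 of 32 genes were higher in allogeneic libraries, beside 31.8% of all genes called higher and 25.9% called lower. The median log2 fold change of the 32 genes was 3.35, beside -0.010 over all genes. Allogeneic libraries all lay above naive ones for 24 of the 32 genes, beside 32.5% of all genes. The 7 genes not called there were Gata1, Sptb, Epb42, Tmod1, Dmtn, Icam4 and Bpgm. Between the transplant groups, 31 of 32 genes were lower in allogeneic libraries, beside 20.7% of all genes called lower and 24.3% called higher, and the median log2 fold change was -4.19 beside -0.025 over all genes. Allogeneic libraries all lay below syngeneic ones for the same 31 genes, beside 25.3% of all genes, and the gene outside both counts was Car1. The 3 comparisons share libraries, so their values are given side by side and not as independent results. The list was chosen with earlier results of these data known, so its counts beside the shares of all genes are a description. With limma-voom in place of edgeR, 13 of the 25 calls between allogeneic and naive libraries passed, and those of Hba-a2, Epor, Rhd, Kel, Tspan33, Cldn13, Tspo2, Mfsd2b, Car1, Trim10, Trim58 and Hemgn did not.

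**Figure D1:**
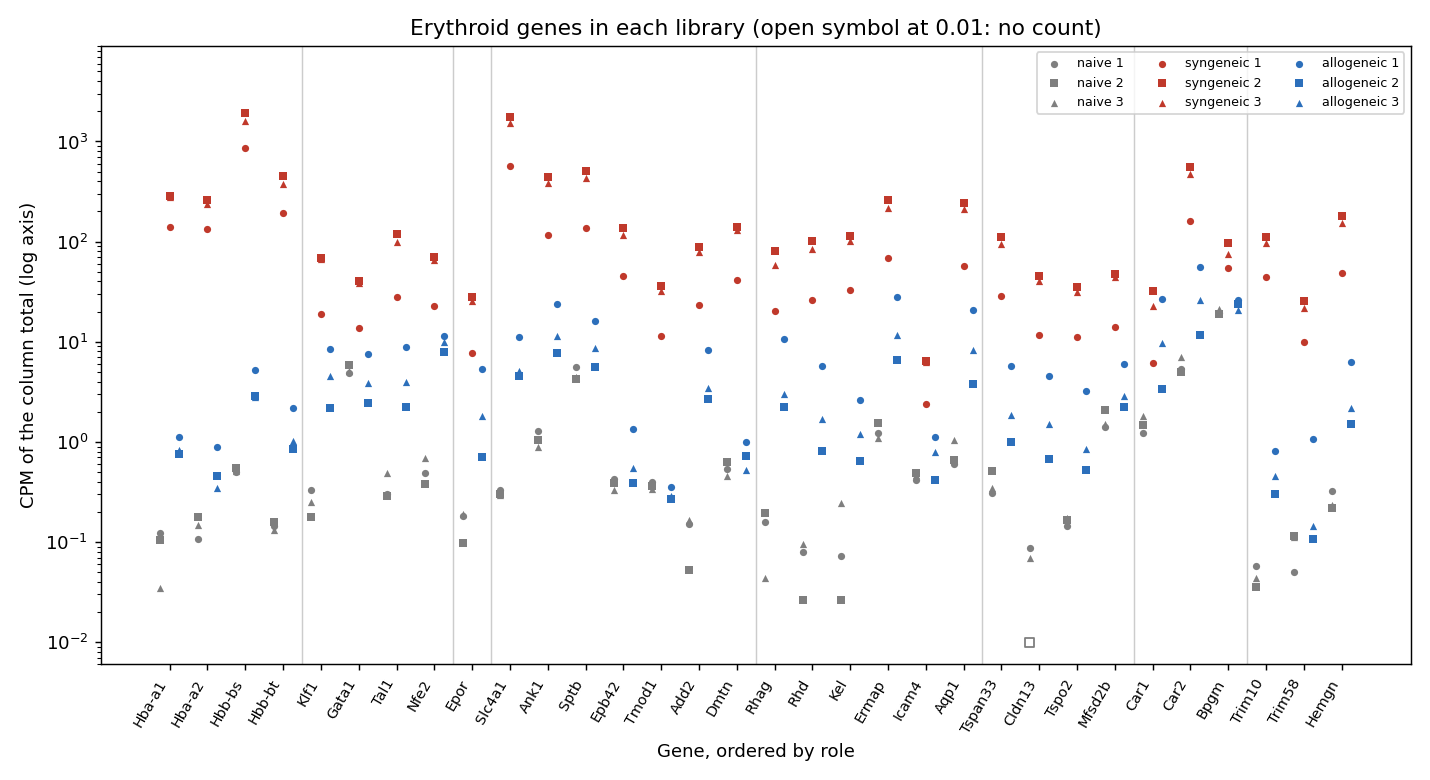
Level of each of the 32 genes in each of the 9 libraries, in CPM of the column total on a log axis, grouped by role (globins, transcription factors, receptor, membrane skeleton, blood group, other membrane proteins, enzymes, nuclear proteins and ubiquitin ligases). Each symbol is 1 library. Syngeneic libraries are highest for 31 of 32 genes and overlap allogeneic ones for Car1, and the open symbol marks naive library 2, which had no count of Cldn13.

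All 4 adult globins were called in each comparison, and Hbb-bs reached the highest level of the 32 genes in syngeneic libraries. Hbb-bs, an adult beta-globin (chromosome 7, 103826534 to 103828096, GRCm38), was at 0.499, 0.547 and 0.514 CPM in naive libraries 1 to 3. Hbb-bs was at 858, 1904 and 1608 CPM in syngeneic libraries 1 to 3 and at 5.17, 2.88 and 2.84 CPM in allogeneic libraries 1 to 3. The 3 groups did not overlap, with naive lowest, allogeneic between and syngeneic highest. The log2 fold change was 11.47 ± 0.44 (SE, n = 3 per group, edgeR adjusted p = 2.29e-08) between syngeneic and naive libraries. Between allogeneic and naive libraries it was 2.88 ± 0.36 (edgeR adjusted p = 4.13e-05), and between allogeneic and syngeneic libraries -8.60 ± 0.39 (edgeR adjusted p = 4.61e-08).

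Hbb-bt, the neighbouring beta-globin gene, was at 0.131 to 0.159 CPM in naive, 195 to 451 CPM in syngeneic and 0.843 to 2.205 CPM in allogeneic libraries. The alpha-globin Hba-a1 was at 0.0349 to 0.123, 140.0 to 288 and 0.753 to 1.13 CPM, in the same order of groups. Its copy Hba-a2 was at 0.108 to 0.176, 133 to 261 and 0.346 to 0.882 CPM. For each of these genes the groups kept the order of Hbb-bs without overlap. The log2 fold changes between syngeneic and naive libraries were 11.21 ± 0.53 for Hbb-bt, 11.37 ± 0.40 for Hba-a1 and 10.54 ± 0.42 for Hba-a2 (SE). Between allogeneic and syngeneic libraries the 4 globins lay within -7.93 (Hbb-bt) and -8.60 (Hbb-bs). Copies can share reads, and the sources used here do not say how reads with several alignments were counted. The Hba-a1 and Hba-a2 transcripts are 99.8% identical over 538 aligned bases and those of Hbb-bs and Hbb-bt 92.7% over 626, so the level of each copy is uncertain. The embryonic globins Hbb-y, Hbb-bh1, Hbb-bh2 and Hba-x had no count in any naive or allogeneic library. In syngeneic libraries their summed level was 0.00767 to 0.223 CPM, too low for the test.

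Per kilobase of exon, which allows genes to be ranked against each other, the globins led the syngeneic libraries. Hbb-bs stood at 1897 ± 702 CPM per kilobase (SD, n = 3), Hbb-bt at 484 ± 187, Hba-a2 at 315 ± 102, Hba-a1 at 291 ± 103 and Slc4a1 at 262 ± 129.5. The spreads of the last 4 overlapped. Since all 32 genes moved together between syngeneic libraries, the SD does not measure whether genes differ within a library. In allogeneic libraries the order was another. Car2 led at 12.8 ± 9.16 CPM per kilobase, followed by Car1 at 10.6 ± 9.63, Bpgm at 6.57 ± 0.726 and Hbb-bs at 4.73 ± 1.74. Spreads of neighbours overlapped there too, with the same limit. In naive libraries Bpgm was first at 5.52 ± 0.305 CPM per kilobase, above Car2 at 2.39 ± 0.440 and Gata1 at 2.18 ± 0.221.

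The 4 transcription factors rose in syngeneic libraries and fell less than the globins between the transplant groups. Klf1, the zinc finger activator of the beta-globin promoter, was at 0.333, 0.176 and 0.253 CPM in naive libraries. It was at 19.1, 69.3 and 67.4 CPM in syngeneic and 8.39, 2.18 and 4.54 CPM in allogeneic libraries. The groups did not overlap, and syngeneic library 1 and allogeneic library 1 lay nearest to each other. The log2 fold change was 7.66 ± 0.70 between syngeneic and naive (edgeR adjusted p = 7.14e-06), 4.37 ± 0.65 between allogeneic and naive (edgeR adjusted p = 0.000141) and -3.29 ± 0.53 between allogeneic and syngeneic libraries (edgeR adjusted p = 0.00049).

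Tal1, the partner of Gata1 in the complex that opens red-cell genes, was at 0.291 to 0.488 CPM in naive, 28.1 to 119 CPM in syngeneic and 2.24 to 8.84 CPM in allogeneic libraries. Nfe2, the DNA-binding subunit of a factor that drives globin genes and is also used by platelet precursors, was at 0.379 to 0.689, 22.9 to 70.6 and 7.90 to 11.4 CPM. Groups did not overlap for either gene, and Nfe2 varied less among allogeneic libraries than Klf1 or Tal1. The log2 fold changes between allogeneic and syngeneic libraries were -3.95 ± 0.58 for Tal1 and -2.39 ± 0.34 for Nfe2 (SE).

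Gata1, the master regulator of the lineage, was the transcription factor with a clear level in naive libraries, at 4.88, 5.92 and 5.15 CPM. It was at 13.8, 40.9 and 38.4 CPM in syngeneic and 7.53, 2.47 and 3.89 CPM in allogeneic libraries. Syngeneic libraries were highest, and allogeneic ones fell on both sides of the naive ones. Its log2 fold change was 2.56 ± 0.44 between syngeneic and naive libraries (edgeR adjusted p = 0.000729) and -2.67 ± 0.44 between allogeneic and syngeneic libraries (edgeR adjusted p = 0.000563). Between allogeneic and naive libraries it was -0.11 ± 0.42 (edgeR adjusted p = 0.832), and 0.22 without allogeneic library 2.

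Epor, the erythropoietin receptor (chromosome 9, 21958897 to 21963506), was at 0.181, 0.0970 and 0.192 CPM in naive, 7.67, 28.1 and 25.7 CPM in syngeneic and 5.32, 0.702 and 1.80 CPM in allogeneic libraries. Allogeneic library 1 came within the reach of syngeneic library 1 without overlap. The log2 fold change was 7.02 ± 0.86 between syngeneic and naive libraries (edgeR adjusted p = 6.43e-05), 4.14 ± 0.80 between allogeneic and naive libraries (edgeR adjusted p = 0.000993) and -2.88 ± 0.66 between allogeneic and syngeneic libraries (edgeR adjusted p = 0.00465).

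The 7 genes of the membrane skeleton and its anchors were all higher in syngeneic than in naive libraries and all lower in allogeneic than in syngeneic libraries, and 3 of them were higher in allogeneic than in naive libraries. Of all genes tested, 22.4%, 20.7% and 31.8% were called in these directions, in the same order. Slc4a1, the anion exchanger band 3 that anchors the skeleton (chromosome 11, 102348824 to 102366203), was at 0.333, 0.300 and 0.296 CPM in naive libraries. It was at 563, 1758 and 1525 CPM in syngeneic and 11.2, 4.52 and 5.11 CPM in allogeneic libraries. The groups did not overlap, and its log2 fold change between syngeneic and naive libraries, 12.02 ± 0.65 (edgeR adjusted p = 1.23e-07), was the highest of the 32 genes. Between allogeneic and naive libraries it was 4.56 ± 0.55 (edgeR adjusted p = 3.05e-05) and between allogeneic and syngeneic libraries -7.46 ± 0.52 (edgeR adjusted p = 9.5e-07).

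Ank1, the ankyrin that ties spectrin to band 3, was at 0.881 to 1.27 CPM in naive, 118 to 443 CPM in syngeneic and 7.66 to 23.7 CPM in allogeneic libraries. Add2, the beta subunit of adducin at the spectrin-actin junction, was at 0.0529 to 0.166, 23.3 to 88.1 and 2.69 to 8.20 CPM. Groups were separate for both, with log2 fold changes between allogeneic and naive libraries of 3.82 ± 0.55 for Ank1 and 5.34 ± 0.71 for Add2 (SE). Sptb, the erythroid beta-spectrin, was at 4.22 to 5.60 CPM in naive, 136 to 512 CPM in syngeneic and 5.55 to 16.2 CPM in allogeneic libraries. Naive and allogeneic libraries overlapped by a narrow margin, and the log2 fold change between them, 1.17 ± 0.47, missed the threshold (edgeR adjusted p = 0.0505). It passed with DESeq2 size factors, with no filter on low counts, with only the 6 libraries compared, without allogeneic library 2 and without syngeneic library 1 or 2, and Epb42 and Icam4 were also called without allogeneic library 2.

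The other 3 skeleton genes were also not called between allogeneic and naive libraries. Mean allogeneic levels were 1.99-fold the naive mean for Epb42, 1.38-fold for Dmtn and 0.834-fold for Tmod1. Epb42, a membrane protein that binds band 3, was at 0.427, 0.388 and 0.331 CPM in naive, 45.9, 138 and 115 CPM in syngeneic and 1.35, 0.385 and 0.548 CPM in allogeneic libraries. Dmtn, the actin bundler dematin, was at 0.453 to 0.635, 41.7 to 142 and 0.519 to 1.01 CPM. Tmod1, the tropomodulin that caps actin filaments, was at 0.340 to 0.398, 11.4 to 36.4 and 0.272 to 0.356 CPM. Naive and allogeneic libraries overlapped for the 3 genes, while syngeneic ones lay far above. Log2 fold changes between allogeneic and naive libraries were 1.03 ± 0.56 for Epb42, 0.54 ± 0.46 for Dmtn and -0.22 ± 0.40 for Tmod1, and between allogeneic and syngeneic libraries -7.00 ± 0.52, -7.06 ± 0.46 and -6.40 ± 0.40 (SE). The sources used here do not say whether counting used strand, and 1287 exon bases of Tmod1 lie opposite Tstd2, 862 of Ank1 opposite Gm15816 and 356 of Add2 opposite Gm44089, so reads of these partners may be mixed in.

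Of the 6 blood group genes all were higher in syngeneic than in naive and lower in allogeneic than in syngeneic libraries, and 5 were higher in allogeneic than in naive libraries. The shares of all genes called in these directions were 22.4%, 20.7% and 31.8%, in the same order. Rhag and Rhd, partners in the Rh complex of the membrane, were at 0.0436 to 0.194 and 0.0265 to 0.0959 CPM in naive libraries. In syngeneic libraries they were at 20.3 to 81.0 and 26.4 to 101 CPM. In allogeneic library 1 they were at 10.5 and 5.69 CPM, and in the other 2 allogeneic libraries at 2.21 to 3.04 and 0.809 to 1.68 CPM. Groups did not overlap, and allogeneic library 1 set most of the spread. Log2 fold changes between allogeneic and naive libraries were equal at 5.40 ± 0.83 and 5.40 ± 0.99, while those between allogeneic and syngeneic libraries were -3.24 ± 0.63 and -4.61 ± 0.70 (SE).

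Kel, the peptidase that carries the Kell antigen, was at 0.0723, 0.0265 and 0.244 CPM in naive libraries, where library 3 held most of its counts. It was at 33.0 to 115 CPM in syngeneic and 0.640 to 2.59 CPM in allogeneic libraries, above naive ones throughout. Its log2 fold change between syngeneic and naive libraries, 9.52 ± 0.80, moved 2.19-fold on the linear scale without naive library 3. Ermap, the Scianna antigen, was at 1.09 to 1.56, 68.2 to 260.2 and 6.61 to 27.9 CPM, and Aqp1, the water channel of the Colton group, at 0.607 to 1.06, 57.7 to 245 and 3.80 to 20.7 CPM. Their groups were separate, with log2 fold changes between allogeneic and syngeneic libraries of -3.48 ± 0.56 and -3.88 ± 0.64 (SE). Icam4, the Landsteiner-Wiener adhesion protein, was at 0.419 to 0.485 CPM in naive, 2.41 to 6.44 CPM in syngeneic and 0.419 to 1.13 CPM in allogeneic libraries. It was the scarcest of the 32 genes in syngeneic libraries, and all 1110 exon bases lie opposite Gm47079, so its counts are uncertain. Its log2 fold change between allogeneic and naive libraries was 0.84 ± 0.42 (edgeR adjusted p = 0.109).

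The 4 other membrane proteins were called in every comparison. Tspan33, a tetraspanin of red-cell precursors, was at 0.311 to 0.512 CPM in naive, 28.7 to 111 CPM in syngeneic and 1.00 to 5.71 CPM in allogeneic libraries. Tspo2, the erythroid relative of the mitochondrial translocator protein, was at 0.145 to 0.174, 11.1 to 34.9 and 0.526 to 3.21 CPM. Cldn13, a claudin-family protein, had no count in naive library 2, which allows up to 0.0265 CPM, and was at 0.0868 and 0.0698 CPM in naive libraries 1 and 3. It was at 11.7 to 45.7 CPM in syngeneic and 0.668 to 4.54 CPM in allogeneic libraries, and its log2 fold change between allogeneic and naive libraries, 5.43 ± 0.99, was the highest of the 32 genes (edgeR adjusted p = 0.000649), on 20 naive counts. The value moved 1.54-fold without naive library 1. Mfsd2b, the exporter of sphingosine phosphate in red cells and platelets, was at 1.41 to 2.08, 14.2 to 47.7 and 2.21 to 6.05 CPM. Its naive and allogeneic libraries lay next to each other, 1.25 ± 0.46 apart on the log2 scale (edgeR adjusted p = 0.0376), which missed the threshold when allogeneic library 1 or any 1 naive library was left out.

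Of the 3 enzymes, Bpgm and Car1 had the smallest differences between the transplant groups among the 32 genes, while Car2 lay among the other genes. Car2, the high-activity carbonic anhydrase, was at 5.40, 4.98 and 7.00 CPM in naive, 160.0, 557 and 469.7 CPM in syngeneic and 55.2, 11.7 and 26.0 CPM in allogeneic libraries. The groups were separate, and allogeneic minus syngeneic on the log2 scale was -3.59 ± 0.57 (edgeR adjusted p = 0.000405). Car1, the low-activity form that is abundant in red cells, was at 1.22, 1.46 and 1.81 CPM in naive, 6.13, 32.2 and 22.9 CPM in syngeneic and 26.6, 3.36 and 9.65 CPM in allogeneic libraries. Both transplant groups lay above the naive libraries and overlapped each other, since allogeneic library 1 was above 2 of the 3 syngeneic libraries. Its log2 fold change was 3.77 ± 0.75 between syngeneic and naive libraries (edgeR adjusted p = 0.0019) and 3.25 ± 0.74 between allogeneic and naive libraries (edgeR adjusted p = 0.00277). Between allogeneic and syngeneic libraries it was -0.52 ± 0.66 (edgeR adjusted p = 0.538), which does not show that the levels were alike. Without allogeneic library 1 it was -1.67 (edgeR adjusted p = 0.0468, over the alternatives 0.0468 to 0.961).

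Bpgm makes the bisphosphoglycerate that lowers the oxygen affinity of hemoglobin. It was at 19.4, 18.9 and 21.0 CPM in naive, 54.0, 97.3 and 75.5 CPM in syngeneic and 26.0, 23.9 and 20.8 CPM in allogeneic libraries. It had the highest naive level of the list, syngeneic libraries lay above all others, and naive and allogeneic libraries overlapped at 1 library. Its log2 fold changes were 1.96 ± 0.18, 0.31 ± 0.17 and -1.65 ± 0.18 for syngeneic against naive, allogeneic against naive and allogeneic against syngeneic libraries (SE).

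Trim10 and Trim58, ubiquitin ligases of late red-cell precursors, and Hemgn, a nuclear protein of the lineage, were called in every comparison. Trim10 was at 0.0578, 0.0353 and 0.0436 CPM in naive, 44.3, 112 and 97.8 CPM in syngeneic and 0.806, 0.300 and 0.452 CPM in allogeneic libraries. Its groups did not overlap, and its log2 fold change of -7.33 ± 0.43 between allogeneic and syngeneic libraries (edgeR adjusted p = 2.2e-07) was near those of the globins. Hemgn was at 0.220 to 0.325, 48.7 to 181 and 1.52 to 6.33 CPM. Trim58 was at 0.0506 to 0.115 CPM in naive and 9.90 to 25.5 CPM in syngeneic libraries, and at 1.08, 0.108 and 0.144 CPM in allogeneic libraries. Allogeneic library 1 alone lay clearly above naive libraries for Trim58, and the difference from naive, 2.35 ± 0.90 on the log2 scale (edgeR adjusted p = 0.042), lost its call without that library or without any 1 of the naive libraries.

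**Figure D2:**
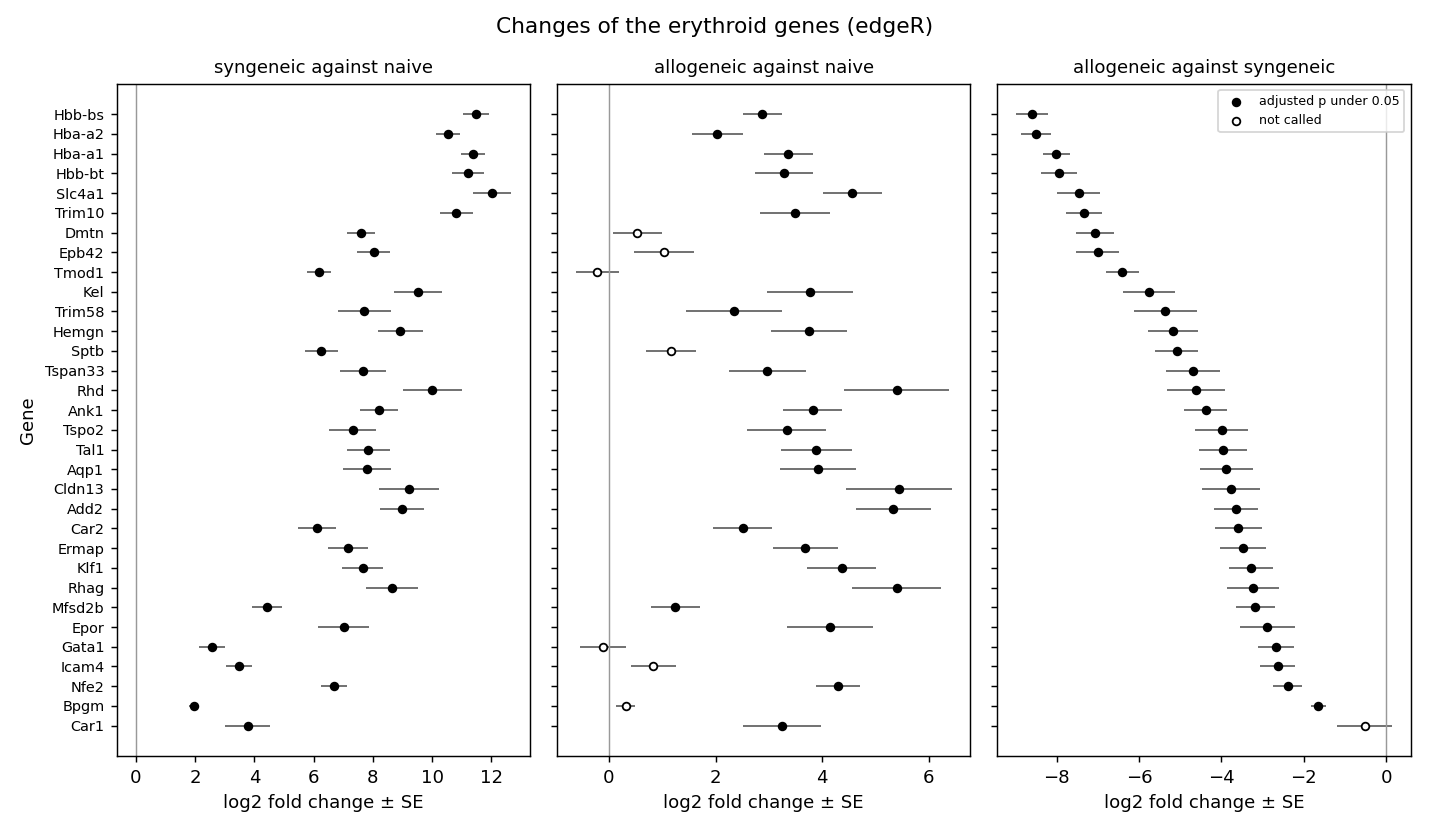
Log2 fold change of each gene with its SE (edgeR, n = 3 libraries per group) for syngeneic against naive, allogeneic against naive and allogeneic against syngeneic libraries, ordered by the third. Filled points passed an adjusted p of 0.05 over all genes and open points did not: 32, 25 and 31 of the 32 genes are filled.

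The fall between transplant groups was far from equal across the 32 genes. The mean syngeneic level was 401-fold the mean allogeneic level for Hbb-bs and 1.55-fold for Car1. It was at least 100-fold for 8 genes: Hbb-bs, Hba-a2, Hba-a1, Hbb-bt, Slc4a1, Trim10, Dmtn and Epb42. It was 50- to 100-fold for Tmod1 and Kel, 20- to 50-fold for 6 genes and 10- to 20-fold for 9 genes, among them Tal1, Klf1 and Car2. Epor, Gata1, Nfe2, Icam4 and Mfsd2b lay between 5- and 10-fold, and Bpgm and Car1 below that. Ranked over all 19609 genes by log2 fold change from the lowest, Hbb-bs was number 12, Klf1 number 353, Nfe2 number 701 and Car1 number 5382, and 8 of the 50 lowest were among these genes.

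Ratios of counts within a library show the same without any scaling between libraries. They are not corrected for gene length, so they compare libraries and not genes. Hbb-bs fell the most of the 32 genes between the transplant groups. Higher ratios of other genes to Hbb-bs in allogeneic libraries therefore follow in part from the choice of divisor. Hba-a1 had 0.151 to 0.175 counts per count of Hbb-bs in syngeneic and 0.218 to 0.292 in allogeneic libraries, and Hbb-bt 0.227 to 0.237 and 0.293 to 0.426. Both were higher relative to Hbb-bs in each allogeneic than in each syngeneic library, whereas Hba-a2 overlapped, at 0.137 to 0.155 and 0.122 to 0.170. Slc4a1 had 0.657 to 0.948 counts per count of Hbb-bs in syngeneic and 1.57 to 2.17 in allogeneic libraries. Klf1 had 0.0223 to 0.0419 counts per count of Hbb-bs in syngeneic and 0.756 to 1.62 in allogeneic libraries. Car1 had 0.00715 to 0.0169 and 1.17 to 5.14, and Car2 0.187 to 0.292 and 4.06 to 10.7. These 3 genes were higher relative to Hbb-bs in each allogeneic than in each syngeneic library. Naive libraries also had high ratios, with 0.323 to 0.667 counts of Klf1, 2.45 to 3.53 of Car1 and 9.11 to 13.6 of Car2 per count of Hbb-bs, and the ranges of Car1 and Car2 overlapped those of allogeneic libraries. Per count of Klf1, Epor had 0.382 to 0.405 counts in syngeneic and 0.322 to 0.634 in allogeneic libraries, and Rhag 0.862 to 1.17 and 0.669 to 1.26, so that the groups overlapped for both. The other transcription factors did not overlap between the groups. Tal1 had 1.47 to 1.72 counts per count of Klf1 in syngeneic and 0.879 to 1.05 in allogeneic libraries, Nfe2 0.968 to 1.20 and 1.36 to 3.62, and Gata1 0.571 to 0.724 and 0.856 to 1.14. The 4 globins made up 34.6 to 44.9% of the counts of the 32 genes in syngeneic libraries and 2.96 to 4.84% in allogeneic libraries. In naive libraries they made up 1.66 to 2.13%, where Bpgm, Car2, Gata1 and Sptb held most of the counts.

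**Figure D3:**
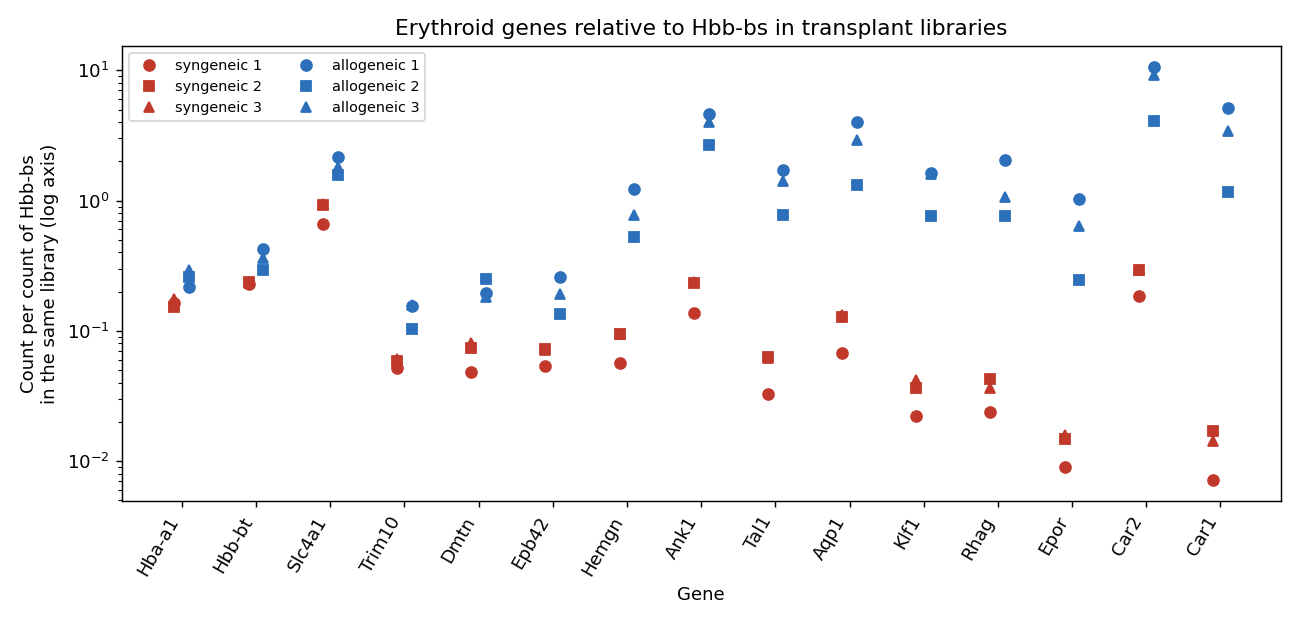
Counts of 15 of the genes per count of Hbb-bs in the same library, on a log axis, for the 3 syngeneic and 3 allogeneic libraries. The 15 genes drawn are higher in each allogeneic than in each syngeneic library, unlike Hba-a2, which is not drawn and overlaps (0.137 to 0.155 against 0.122 to 0.170), and for Klf1 the values are 0.756 to 1.62 against 0.0223 to 0.0419. Hbb-bs fell the most of the 32 genes between these groups, so higher ratios of other genes follow in part from this divisor.

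Libraries of a group differed in the amount of red-cell transcripts, and the genes moved together from library to library. Syngeneic library 2 was the highest of its group and library 1 the lowest for all 32 genes. The fold between them ran from 1.80 (Bpgm) to 5.25 (Car1), with a median of 3.44, and was 1.96 to 2.31 for the globins. Allogeneic library 1 was the highest of its group for all 32 genes, from 1.09-fold (Bpgm) to 10.0-fold (Trim58) above library 2, which was the lowest for 28 genes. Naive libraries showed no such order, each being the highest for 10 or 11 genes. The median coefficient of variation over the 32 genes was 21.8% for naive libraries, 52.5% for syngeneic and 62.2% for allogeneic ones. Without allogeneic library 1, the values of 22 of the 31 genes called lower in allogeneic than in syngeneic libraries moved by more than 1.5-fold, their direction held, and the median log2 fold change was -5.17. Between allogeneic and naive libraries 20 of the 25 called genes moved by more than 1.5-fold without it, the median was 2.72, and 23 genes were called.

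Another 50 genes with roles in red cells, outside the list of 32, followed in part. In syngeneic against naive libraries 43 were higher and 2 lower (Add1 and Ldb1), in allogeneic against naive libraries 28 were higher and 3 lower (Ldb1, Slc14a1 and Rbm38), and in allogeneic against syngeneic libraries 1 was higher (Slc2a1) and 38 lower. Of all genes tested, 22.4%, 31.8% and 24.3% were called higher and 19.5%, 25.9% and 20.7% lower in the same order of comparisons. The median log2 fold changes of the 50 genes were 2.95, 0.98 and -1.77. Many of these genes serve other cells too, and Add1, the alpha subunit of adducin, was at 421 to 458 CPM in naive libraries. Slc25a37, the mitochondrial iron importer mitoferrin, was at 29.7 to 34.7 CPM in naive, 229.6 to 636 CPM in syngeneic and 21.2 to 33.0 CPM in allogeneic libraries. Alas2, the first enzyme of heme synthesis in red cells, was at 0.0794 to 0.108, 151 to 382 and 0.521 to 1.15 CPM, and its log2 fold change of -8.53 ± 0.42 between allogeneic and syngeneic libraries was close to that of Hbb-bs. The groups were ordered naive, allogeneic, syngeneic for Alas2 without overlap, while Slc25a37 was not called between allogeneic and naive libraries (log2 fold change -0.13 ± 0.26). Gata2, which Gata1 replaces as precursors mature, was at 0.185 to 0.314 CPM in naive, 0.414 to 2.54 CPM in syngeneic and 1.51 to 4.93 CPM in allogeneic libraries. It was not called between the transplant groups, at 1.13 ± 0.56 on the log2 scale (edgeR adjusted p = 0.121), and its libraries overlapped. Without allogeneic library 1, 24 of the 50 genes were higher and 4 lower in allogeneic than in naive libraries, and with limma-voom 18 were higher and 3 lower.

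Markers of other blood cells followed the red-cell genes in some comparisons and not in others, and their part in these results was not tested. Beside the counts of every marker list below stand the shares of all genes tested. They were 22.4% higher and 19.5% lower in syngeneic against naive and 31.8% and 25.9% in allogeneic against naive libraries. Allogeneic against syngeneic libraries had 24.3% higher and 20.7% lower. All 14 neutrophil genes were higher in both transplant groups than in naive libraries, with a summed level of 8.13 to 14.2 CPM in naive, 483 to 1595 CPM in syngeneic and 760 to 1335 CPM in allogeneic libraries. Between the transplant groups edgeR called 0 of the 14, with 0 at an unadjusted p under 0.05 and 0 by DESeq2 or limma-voom, and the sums overlapped, unlike those of the 32 red-cell genes. Without syngeneic library 1, 3 of the 14 were lower in allogeneic libraries. Neutrophil granule genes such as Ngp (98.1 to 333 CPM in syngeneic and 156 to 324 CPM in allogeneic libraries), S100a9 and Ltf led the list, and Mmp8 had no count in naive library 3. Of 9 early progenitor genes tested, led by Mpo, Myb and Kit, 6 were higher in syngeneic and 3 in allogeneic libraries than naive ones. The 3 of 9 stood near the 31.8% of all genes called higher in allogeneic against naive libraries. Between the transplant groups 3 were lower in allogeneic libraries (Cd34, Meis1 and Flt3). Mpo stands in the neutrophil list as well. The summed level of the progenitor list was 56.7 to 68.3, 97.2 to 309 and 78.7 to 226 CPM, with syngeneic library 1 and allogeneic library 2 lowest in their groups and allogeneic library 1 highest of its group, as for the red-cell genes, but with syngeneic library 3 highest in its group, unlike them.

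Macrophages of the red pulp and of erythroblastic islands nurse red-cell precursors and take up old red cells. Of 16 of their genes tested, 14 were higher and 1 lower in syngeneic than in naive libraries, 11 were higher in allogeneic than in naive libraries, and 2 were higher and 13 lower in allogeneic than in syngeneic libraries. Maf, Axl and Slc40a1 were the most abundant, and Maf and Axl, which went the other way between transplant groups, are also expressed by T cells or other leukocytes. The summed level of the list was 45.0 to 56.4 CPM in naive, 51.6 to 159 CPM in syngeneic and 220.0 to 241 CPM in allogeneic libraries. Without Maf and Axl, a choice made after their values were seen, the list summed to 3.62 to 4.89, 22.0 to 113 and 19.95 to 21.2 CPM, with syngeneic library 2 highest, as for the red-cell genes, and allogeneic library 1 lowest of its group, unlike them. Timd4, a marker of resident splenic macrophages, had no count in any naive library, in syngeneic library 1 or in allogeneic libraries 1 and 2. Of 10 megakaryocyte and platelet genes tested, 5 were higher and 1 lower in syngeneic than in naive libraries. In allogeneic libraries 2 of the 10 were higher than in naive ones, below the 31.8% of all genes called higher there. Between the transplant groups 1 was higher and 3 lower in allogeneic libraries. Itgb3, Itga2b and Vwf led the list. The whole megakaryocyte and platelet list summed to 153 to 173 CPM in naive, 100 to 106 CPM in syngeneic and 158 to 263 CPM in allogeneic libraries. Syngeneic libraries were thus lowest with Itgb3 included. T cells also carry Itgb3, and leaving it out was a choice made after its values were seen. Without it the list summed to 2.76 to 4.51 CPM in naive, 5.96 to 16.3 CPM in syngeneic and 3.41 to 3.75 CPM in allogeneic libraries. Gp6, a platelet collagen receptor, had a count in syngeneic library 3 and allogeneic library 2 only.

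Of 11 B-cell genes tested, 7 were higher in syngeneic than in naive libraries, 6 higher and 2 lower in allogeneic than in naive libraries, and 1 higher and 7 lower in allogeneic than in syngeneic libraries. Ighm, Cd22 and Cd79b led the list. The whole B-cell list summed to 464 to 490 CPM in naive, 533 to 959 CPM in syngeneic and 967 to 1503 CPM in allogeneic libraries. Without Ighm, a choice made after its values were seen, the list summed to 16.8 to 21.0, 81.8 to 109 and 35.9 to 46.7 CPM. The order of the transplant groups thus reversed when Ighm was left out. Of 15 T-cell genes, led by Ptprc, Thy1 and Lck, 10 were lower in syngeneic than in naive libraries, 2 were higher and 2 lower in allogeneic than in naive libraries, and 8 were higher and 1 lower in allogeneic than in syngeneic libraries. Of 9 natural killer cell genes tested, 5 were higher and 2 lower in syngeneic than in naive libraries, 6 higher and 2 lower in allogeneic than in naive libraries, and 4 higher and 4 lower in allogeneic than in syngeneic libraries. Of 9 dendritic cell genes tested, the counts were 6 higher and 1 lower, 3 higher and 0 lower, and 2 higher and 6 lower in the same order. The shares of all genes given with the neutrophil and progenitor lists stand beside these counts as well. The highest red-cell sum and the lowest T-cell sum fell in the same library, syngeneic 2, at 8401 and 6405 CPM.

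**Figure D4:**
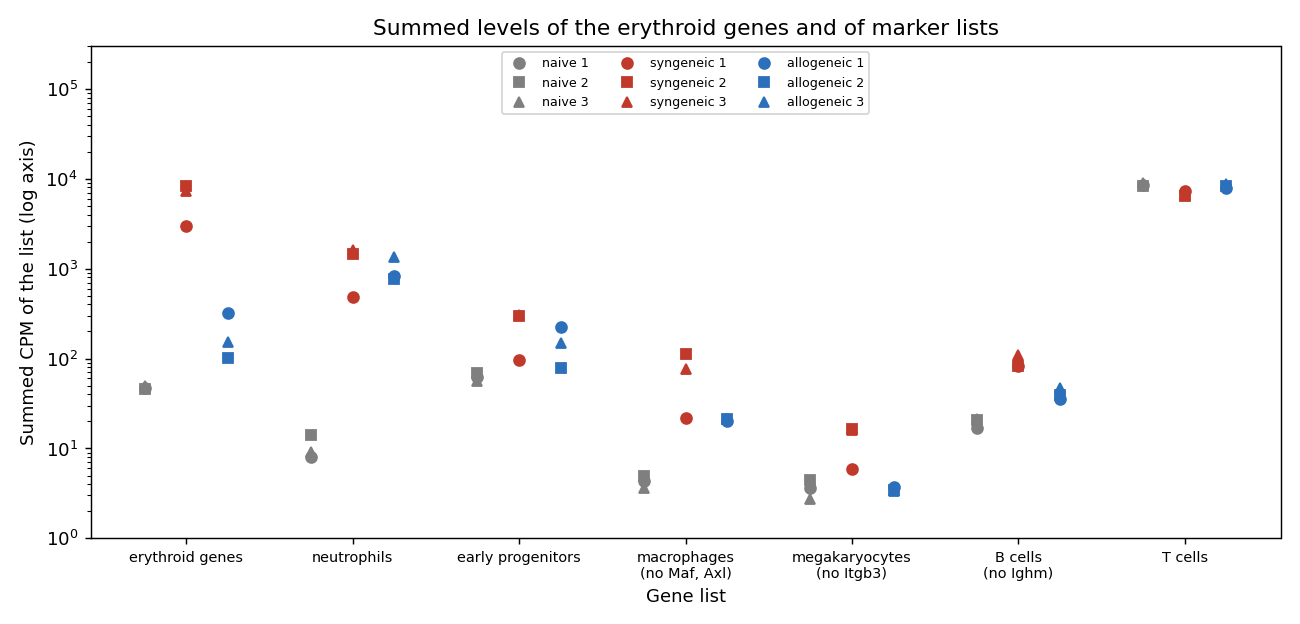
Summed CPM of the 32 red-cell genes and of 6 marker lists in each of the 9 libraries, on a log axis; Maf and Axl, Itgb3 and Ighm are left out of their lists, a choice made after seeing their values. The red-cell sum is 46.3 to 49.8 CPM in naive, 2953 to 8401 CPM in syngeneic and 102 to 317 CPM in allogeneic libraries, while the neutrophil sums of the transplant groups overlap.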

How the data were processed

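Total RNA of the sorted T cells was made into stranded libraries after removal of ribosomal RNA, per the labels' protocols. The authors deposited raw counts per gene in 1 table. The submitters' processing notes name HTSeq 0.6.1, the aligner TopHat2 2.0.13 with Bowtie2 2.2.1, and GRCm38. The sources used here do not give the annotation release, the strand setting or the treatment of reads with several alignments. Samples were grouped by their labels. A strain label on all 9 samples names the syngeneic recipient strain and goes against the protocols, and it was not used.

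Of 29229 genes, 29014 identifiers matched symbols of GENCODE M21. Levels are CPM of the column total, or CPM per kilobase of the union of exons. All 9 libraries entered 1 edgeR 4.0.16 quasi-likelihood fit (R 4.3.3) with filterByExpr and TMM scaling, and p-values were Benjamini-Hochberg adjusted over 19609 genes. The SE is the log2 fold change divided by the square root of F. All 32 genes were described, and other genes were named by list and level. The fit was tested on simulated data. DESeq2 1.42.0, limma-voom (limma 3.58.1), other scalings, no filter, only the libraries compared, a replicate block, no ribosomal locus and each library left out were alternatives. Promoters are RefSeq windows on GRCm38.p6. The members and lists were chosen with earlier results of these data known. Replicates of each group differed by more than counting noise.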

Additional observations from a re-analysis of the deposited data

How the results depend on the processing

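Syngeneic against naive values of all 32 genes kept direction and call under every alternative run, and 32 genes were called throughout. In allogeneic against naive libraries, limma-voom called 13 genes higher in place of 25, and the cause was not tested. The count ran from 23 to 28 when each library was left out. Gata1, not called there, ran from -0.75 (without allogeneic replicate 1) to 0.22 (without allogeneic replicate 2) and so reversed, and the cause was not tested. In allogeneic against syngeneic libraries 31 to 32 genes were lower when each library was left out. Replicate numbers are shared across groups, and same-numbered samples did not deviate together throughout (correlations of -0.188 to 0.377). The highest value was that of syngeneic and naive library 2. These correlations cannot settle whether same-numbered samples were handled together. With a replicate block, 32, 23 and 31 genes were called in the 3 comparisons. Mfsd2b and Trim58 were then no longer called between allogeneic and naive libraries, and the cause was not tested. Counts under 30 in the naive group limit the precision of Trim10, Cldn13 and Rhd, and 3 libraries per group limit every test.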
